A study of Mus musculus with 6 samples.

Results

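Aminoacyl-tRNA synthetases attach each amino acid to its transfer RNAs, the step that fixes the genetic code in translation. Cells carry a cytosolic set and a mitochondrial set, both encoded in the nucleus, and several cytosolic enzymes are bound in a multisynthetase complex with scaffold proteins. Many cytosolic synthetase genes have been reported, in human and mouse cells, as targets of ATF4, the transcription factor of the amino acid and integrated stress response. The set described here holds 36 synthetase genes out of 19323 measured genes, 20 cytosolic and 16 mitochondrial (symbols ending in 2), taken by symbol from a list of the family. All 36 were found by Ensembl identifier.

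RNA was sequenced from CD8+ T cells isolated from the spleens of wild-type C57BL/6 mice. The MCDHFD group had been given MCDHFD for 7 weeks from an age of 6 weeks. The ND group had been given ND from the same age for the same time. The treatment text, which is the same for both diets, speaks of MASH models, MASH being an inflammatory fatty liver disease. There were 3 libraries per diet, and the values are the authors' normalized counts, which summed to between 14119816 and 14752121 per library.

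Nothing in the labels ties each library to an animal of its own, so the spread behind the p-values is that between these libraries and may be technical. They name a whole-RNA and an mRNA kit without saying which library had which, so kit and diet cannot be told apart. Genes were tested with limma on log2(normalized count + 1), with adjustment over all 13430 genes of a mean of at least 10, and called at an adjusted p under 0.05. All 36 synthetase genes passed that filter. Log2 fold changes are MCDHFD over ND on that scale.

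The labelled cell type was checked with marker lists. All 20 CD8 T cell markers were detected and all 20 were lower in MCDHFD libraries, where their summed share of normalized counts was 0.399% to 0.451%, against 0.862% to 0.867% in ND libraries. Macrophage markers (17 of 18 higher, none lower) made up 2.02% to 2.46% in MCDHFD libraries, against 0.406% to 0.494% in ND libraries. Erythroid markers (18 of 18 higher) made up 0.132% to 0.207% in MCDHFD libraries, against 0.0301% to 0.0320% in ND libraries. Neutrophil markers (13 of 13 tested higher) made up 0.0713% to 0.122% in MCDHFD libraries, against 0.00645% to 0.0124% in ND libraries. Dendritic cell markers (10 of 11 lower) made up 0.181% to 0.188% in MCDHFD libraries, against 0.403% to 0.438% in ND libraries. The largest values of that list were those of Ccr7, Cd74, H2-Ab1 and H2-Aa, so this share says little about its other markers. Whether the RNA of these genes came from dendritic cells was not tested. B cell markers (10 of 11 lower) made up 0.119% to 0.137% in MCDHFD libraries, against 0.139% to 0.154% in ND libraries. Most of the B cell sum was Ighm, the only marker of its list called higher. Ighm averaged 16685 normalized counts in MCDHFD libraries and 12576 in ND libraries, of sums averaging 18782 and 20843.5. So this share says little about the B cell markers that were lower. Plasma cell markers (5 of 9 tested higher, 1 lower) made up 0.0758% to 0.111% in MCDHFD libraries, against 0.0396% to 0.0413% in ND libraries. Of 15 proliferation markers, 6 were higher and 3 lower. No marker of these lists was at 0 in all libraries of a diet. The part of these cells in the values below was not tested, and in bulk RNA fewer cells of a type and less RNA per cell cannot be told apart.

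Cytosolic and mitochondrial synthetase genes were called in both directions, at small fold changes. Of the 36, 17 were called, 7 higher and 10 lower in MCDHFD libraries, or 47.2%, where 58.4% of all tested genes were called. The lowest log2 fold change was -0.87 (Cars2) and the highest 0.47 (Aars), and none of the 36 reached 2-fold, a size that 21.4% of all tested genes reached. A size of 1.5-fold was reached by 3 of the 36 (Dars, Cars2 and Wars2) and by 36.9% of all tested genes. The median absolute log2 fold change was 0.18 over the synthetases and 0.40 over all tested genes. It was 0.33 over the 9226 tested genes whose mean lay within the synthetases' own range of means, 100.3 to 3728 normalized counts. Of those genes 60.6% were called and 14.5% reached 2-fold.

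The summed levels of both compartments overlapped between the diets. The 20 cytosolic genes summed to 27181, 28123 and 28004 normalized counts in MCDHFD libraries, against 26379, 27365 and 27408 in ND libraries. The 16 mitochondrial genes summed to 7775, 7621 and 7396 in MCDHFD libraries, against 7461, 7637 and 7691 in ND libraries. The lowest MCDHFD library lay below the highest ND library in both compartments. The cytosolic sum was 3.66 ± 0.148 times the mitochondrial sum in MCDHFD libraries and 3.56 ± 0.0237 times in ND libraries (mean ± SD, n = 3 each).

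**Figure D1:**
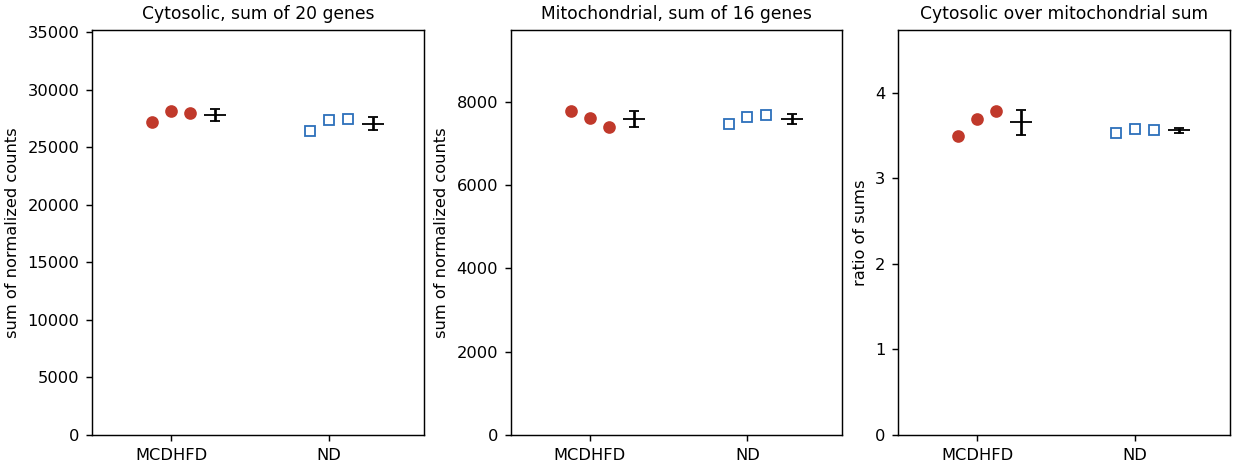
Summed normalized counts of the 20 cytosolic and the 16 mitochondrial synthetase genes and their ratio in each library, MCDHFD (filled circles) and ND (open squares), with the mean and SD of 3 libraries in black. The libraries of the diets overlap in all 3 panels, with cytosolic means of 27769 in MCDHFD libraries and 27050.4 in ND libraries.

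Per compartment, 5 of 20 cytosolic genes were higher and 5 lower, and 2 of 16 mitochondrial genes were higher and 5 lower, where 30.3% of all tested genes were higher and 28.1% lower. The median log2 fold change was 0.01 over the cytosolic genes, 0.00 over the mitochondrial genes and 0.00 over all tested genes. The libraries of the diets did not overlap in 10 of 20 cytosolic genes and 8 of 16 mitochondrial genes, where the same held for 65.4% of all tested genes. These directions hold on the authors' scaling: with the mean log2 level of the CD8 T cell markers set equal in all libraries, the median of all tested genes moved by 1.03, all 20 cytosolic genes and 14 of 16 mitochondrial genes were called higher, and none was called lower. That scaling moves all genes by the same amount, so the order of the genes and the distances between them stay as given here.

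**Figure D2:**
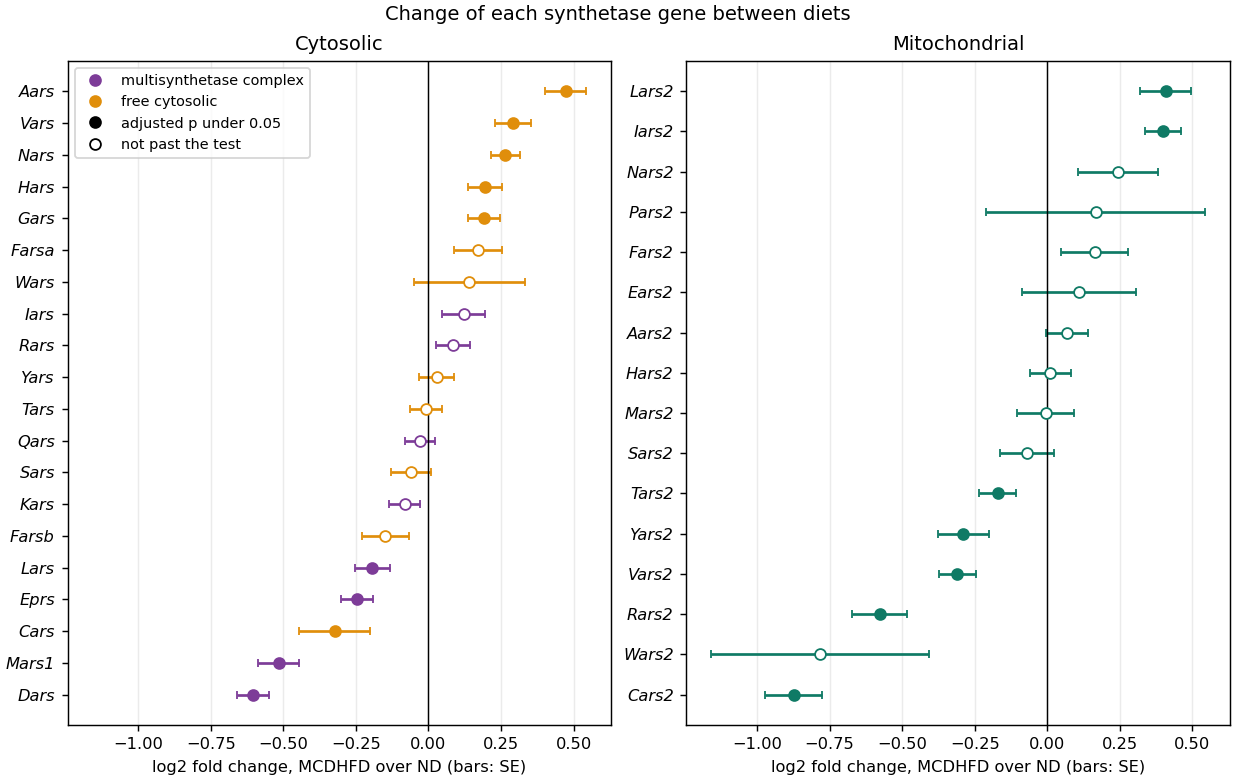
Log2 fold change (MCDHFD over ND, bars are SE, n = 3 libraries each) of each synthetase gene, cytosolic on the left, coloured by membership of the multisynthetase complex, and mitochondrial on the right, with filled points for an adjusted p under 0.05. On the authors' scaling 0 of 8 complex members were called higher and 4 lower, and 5 of 12 free cytosolic genes were called higher and 1 lower, but with CD8 T cell markers set equal all 20 were higher.

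Among the cytosolic enzymes, the called members of the multisynthetase complex were all on the lower side. The complex binds the enzymes for aspartate, glutamate and proline, isoleucine, lysine, leucine, methionine, glutamine and arginine. Of its 8 enzyme genes, 4 were lower and none higher (median log2 fold change -0.14), and of the 12 free cytosolic genes 5 were higher and 1 lower (median 0.16), while all 20 were called higher with CD8 T cell markers set equal. In either subset 50% were called, below the 58.4% of all tested genes (30.3% higher and 28.1% lower). Without ND replicate 2, 3 complex genes were lower, and 3 free genes were higher and none lower. The difference between these subsets was not tested.

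Dars, the aspartyl-tRNA synthetase, had 936, 887 and 953 normalized counts in MCDHFD libraries, against 1432, 1407 and 1387 in ND libraries (log2 fold change -0.61, SE 0.06, limma adjusted p = 2.31e-05). Mars1, the methionyl-tRNA synthetase that also charges the initiator tRNA, had 661, 639.8 and 700.2 normalized counts in MCDHFD libraries, against 889.9, 995 and 979.9 in ND libraries (log2 fold change -0.52, SE 0.07, limma adjusted p = 0.000251). Eprs, a fused enzyme for glutamate and proline, had 1883, 2027 and 1842 normalized counts in MCDHFD libraries, against 2341, 2215 and 2261 in ND libraries (log2 fold change -0.25, SE 0.06, limma adjusted p = 0.00494). In these 3 genes each MCDHFD library lay below each ND library. Lars, the leucyl-tRNA synthetase that is also known as a leucine sensor for mTORC1, had 1026, 999.5 and 1087 normalized counts in MCDHFD libraries, against 1157, 1232 and 1171 in ND libraries (log2 fold change -0.19, SE 0.06, limma adjusted p = 0.0207). Its groups did not overlap either, but its call was lost without ND replicate 2 (adjusted p = 0.0802), without MCDHFD replicate 2 (adjusted p = 0.0666) and in DESeq2 on 5 libraries (adjusted p = 0.0587).

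The other 4 complex enzymes did not pass the test. Kars, whose gene yields the cytosolic and the mitochondrial lysyl-tRNA synthetase, had 1784, 1868 and 1971 normalized counts in MCDHFD libraries, against 1994, 1985 and 1969.6 in ND libraries (adjusted p = 0.225 in limma). Qars, the glutaminyl-tRNA synthetase, averaged 1795 ± 64.3 normalized counts in MCDHFD libraries and 1829.5 ± 11.3 in ND libraries (SD, n = 3 each). Iars, the isoleucyl-tRNA synthetase, had 1394, 1205 and 1204 normalized counts in MCDHFD libraries, against 1106, 1215 and 1168 in ND libraries, with overlapping groups. Rars, the arginyl-tRNA synthetase, had 926, 899 and 891 normalized counts in MCDHFD libraries, against 863, 876 and 823 in ND libraries, so its groups did not overlap although its limma adjusted p was 0.245. Of the 3 scaffold proteins, Aimp1 fell (-0.22 on the log2 scale, adjusted p = 0.0154 in limma), with 622, 631 and 613 normalized counts in MCDHFD libraries, against 696, 763 and 722 in ND libraries, and was not called without ND replicate 2 or in DESeq2 on 5 libraries. Aimp2 (log2 fold change -0.02) and Eef1e1 (0.12) did not pass.

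Of the free cytosolic enzymes, the alanine, valine and asparagine enzymes rose most. Aars, the alanyl-tRNA synthetase, had 1954, 2071 and 1888 normalized counts in MCDHFD libraries, against 1311, 1538 and 1418 in ND libraries (log2 fold change 0.47, SE 0.07, limma adjusted p = 0.000448). Vars, the valyl-tRNA synthetase, had 4034, 4257 and 4008 normalized counts in MCDHFD libraries, against 3118, 3349 and 3602 in ND libraries (log2 fold change 0.29, SE 0.06, limma adjusted p = 0.00366). Nars, the asparaginyl-tRNA synthetase, had 2300.2, 2419 and 2396 normalized counts in MCDHFD libraries, against 2008, 1987 and 1923 in ND libraries (log2 fold change 0.27, SE 0.05, limma adjusted p = 0.00169). In each of these genes all MCDHFD libraries lay above all ND libraries, and the calls remained without any 1 library.

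Gars and Hars rose by less. Gars, whose gene yields the cytosolic and the mitochondrial glycyl-tRNA synthetase, had 1665, 1762 and 1825 normalized counts in MCDHFD libraries, against 1520.3, 1516 and 1565 in ND libraries (log2 fold change 0.19, SE 0.06, limma adjusted p = 0.0159). Hars, the histidyl-tRNA synthetase, had 942, 985 and 927 normalized counts in MCDHFD libraries, against 811, 825 and 859 in ND libraries (log2 fold change 0.19, SE 0.06, limma adjusted p = 0.0198). The groups did not overlap in these genes. The call of Gars was lost without ND replicate 2 (adjusted p = 0.0532) and without MCDHFD replicate 3 (adjusted p = 0.0627), and under quantile scaling (adjusted p = 0.0978). That of Hars was lost without ND replicate 1 (adjusted p = 0.0561), without ND replicate 2 (adjusted p = 0.06), without MCDHFD replicate 2 (adjusted p = 0.0654), under quantile scaling (adjusted p = 0.104) and in DESeq2 on 5 libraries (adjusted p = 0.056).

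Cars, the cysteinyl-tRNA synthetase, had the lowest fold change of the free enzymes, with 351, 393 and 376 normalized counts in MCDHFD libraries, against 388, 490.3 and 535 in ND libraries (log2 fold change -0.32, SE 0.12, limma adjusted p = 0.0457). Its highest MCDHFD library lay above its lowest ND library, and its call was lost without any of 5 libraries, at adjusted p values of 0.0602 without MCDHFD replicate 2, 0.0895 without MCDHFD replicate 3, 0.118 without MCDHFD replicate 1, 0.125 without ND replicate 2 and 0.161 without ND replicate 3. It was not called by edgeR on the recovered reads of 5 libraries (adjusted p = 0.128) or by DESeq2 on them (adjusted p = 0.201), nor with a minimum mean of 1 (adjusted p = 0.0504) or with no filter (adjusted p = 0.0553).

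The remaining 6 free enzymes did not pass, at log2 fold changes of -0.15 to 0.17. Farsa and Farsb, the alpha and beta subunits of the cytosolic phenylalanyl-tRNA synthetase, lay on opposite sides of 0. Farsa averaged 1049 ± 83.3 normalized counts in MCDHFD libraries and 931 ± 75.2 in ND libraries (adjusted p = 0.107 in limma), and was called without MCDHFD replicate 1 (adjusted p = 0.0356). Farsb averaged 646 ± 34.9 normalized counts in MCDHFD libraries and 718 ± 61.8 in ND libraries (adjusted p = 0.153 in limma), and was called lower under quantile scaling (adjusted p = 0.0355). The enzymes for serine (Sars, log2 fold change -0.06), threonine (Tars, -0.01) and tyrosine (Yars, 0.03) had overlapping groups. Yars had 743, 707 and 720.3 normalized counts in MCDHFD libraries, against 689, 727 and 712 in ND libraries.

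Wars, the tryptophanyl-tRNA synthetase that interferon gamma induces in human cells, had 529.9, 446 and 822 normalized counts in MCDHFD libraries, against 504, 559 and 515 in ND libraries. Its MCDHFD libraries spread more than its ND libraries, with replicate 3 above and replicate 2 below all others. Its adjusted p was 0.556 in limma, and its log2 fold change of 0.14 was -0.11 without MCDHFD replicate 3 (adjusted p = 0.392).

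**Figure D3:**
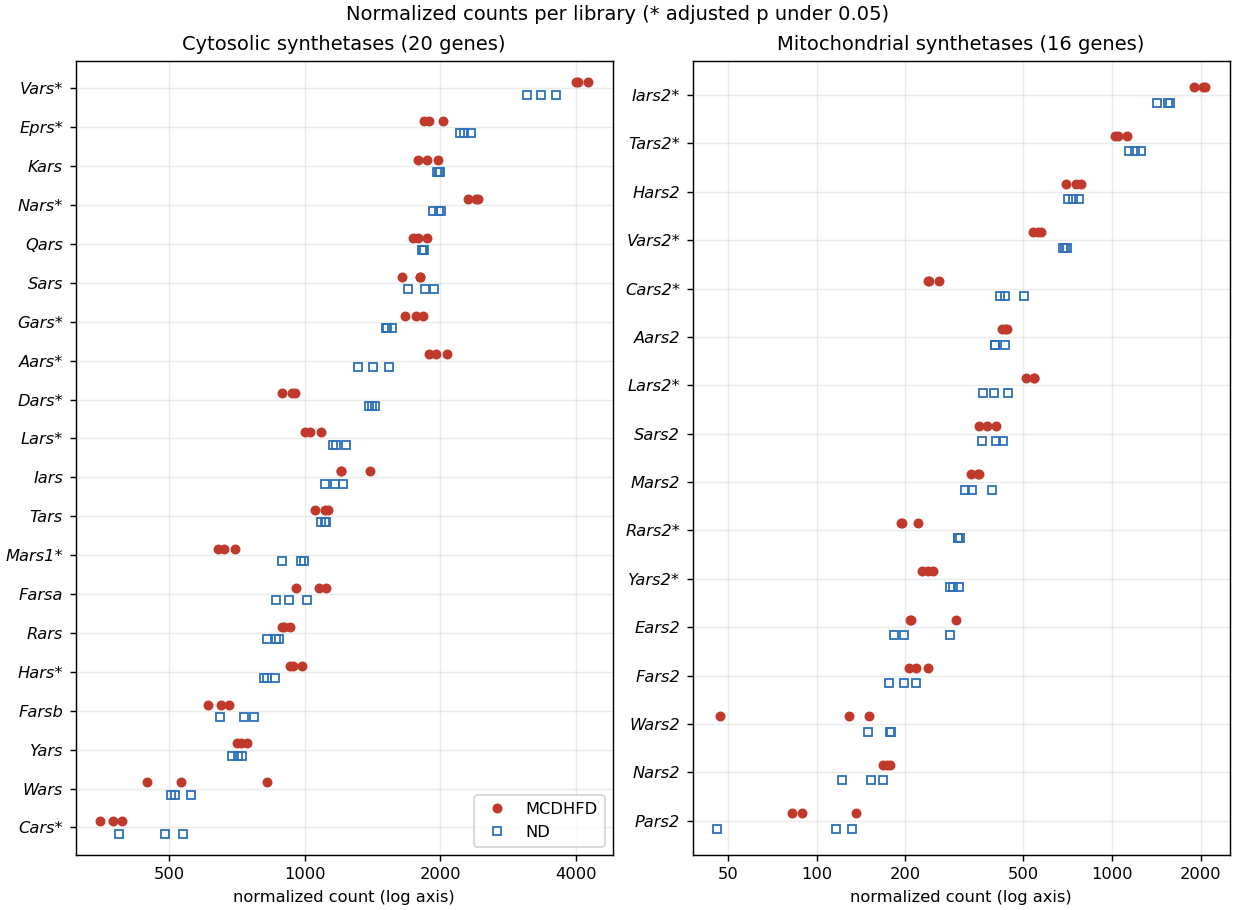
Normalized counts of each synthetase gene in every library on log axes, MCDHFD (filled circles, upper row of each gene) and ND (open squares, lower row), genes ordered by their ND mean and marked with * where the adjusted p was under 0.05. Groups stand clearly apart for Dars (887 to 953 in MCDHFD libraries and 1387 to 1432 in ND libraries) and Cars2 (239 to 261 in MCDHFD libraries and 420 to 506 in ND libraries), and a single MCDHFD library lies far below the others for Wars2.

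Among the called mitochondrial enzymes, those for cysteine and arginine fell most. Cars2, the mitochondrial cysteinyl-tRNA synthetase that is also known to make cysteine persulfides, had 240.0, 239 and 261 normalized counts in MCDHFD libraries, against 506, 436 and 419.7 in ND libraries (log2 fold change -0.87, SE 0.10, limma adjusted p = 7.40e-05). Rars2, the arginine enzyme, had 194, 195 and 220.4 normalized counts in MCDHFD libraries, against 306, 301 and 302 in ND libraries (log2 fold change -0.58, SE 0.09, limma adjusted p = 0.000726). Vars2, the valine enzyme, had 574, 542 and 560.4 normalized counts in MCDHFD libraries, against 682, 692 and 704 in ND libraries (log2 fold change -0.31, SE 0.06, limma adjusted p = 0.00253). In these 3 genes each MCDHFD library lay below each ND library and the calls remained without any 1 library.

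Yars2 and Tars2 fell by less. Yars2, the tyrosine enzyme, variants of which cause sideroblastic anaemia in humans, had 227, 249 and 239 normalized counts in MCDHFD libraries, against 289.8, 303 and 282 in ND libraries (log2 fold change -0.29, SE 0.09, limma adjusted p = 0.0199). Tars2, the threonine enzyme, had 1124, 1049 and 1026 normalized counts in MCDHFD libraries, against 1195, 1148 and 1257 in ND libraries (log2 fold change -0.17, SE 0.06, limma adjusted p = 0.0436). Both had groups that did not overlap. The call of Yars2 was lost without ND replicate 2 (adjusted p = 0.0741), without MCDHFD replicate 1 (adjusted p = 0.0506) and in DESeq2 on 5 libraries (adjusted p = 0.0709). That of Tars2 was lost without ND replicate 1 (adjusted p = 0.0819), ND replicate 3 (adjusted p = 0.144), MCDHFD replicate 2 (adjusted p = 0.104) or MCDHFD replicate 3 (adjusted p = 0.132), and in edgeR (adjusted p = 0.136) and DESeq2 (adjusted p = 0.226) on the recovered reads. It was also lost with a minimum mean of 1 (adjusted p = 0.0527) and with no filter (adjusted p = 0.0585).

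The mitochondrial enzymes for isoleucine and leucine rose. Iars2 had 2072, 1901 and 2031 normalized counts in MCDHFD libraries, against 1423, 1574 and 1554 in ND libraries (log2 fold change 0.40, SE 0.06, limma adjusted p = 0.000552). Lars2 had 545, 543 and 511 normalized counts in MCDHFD libraries, against 365, 399.8 and 443 in ND libraries (log2 fold change 0.41, SE 0.09, limma adjusted p = 0.00368). All MCDHFD libraries lay above all ND libraries in both, and both calls remained without any 1 library.

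Of the 9 mitochondrial genes that did not pass, Wars2, the tryptophan enzyme, had the largest fold change and an SE of 0.38. It had 151, 129 and 47.0 normalized counts in MCDHFD libraries, against 177, 149 and 179 in ND libraries (log2 fold change -0.78, adjusted p = 0.104 in limma). Its value rests on MCDHFD replicate 3, the lowest library: the log2 fold change was -0.27 without it (adjusted p = 0.169) and -1.10 without MCDHFD replicate 1 (adjusted p = 0.0357). The same library had the highest Wars value.

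Pars2 and Ears2, the mitochondrial enzymes for proline and glutamate, also varied widely within a diet. Pars2 had 89.4, 136 and 82.8 normalized counts in MCDHFD libraries, against 46.0, 131 and 117 in ND libraries, with ND replicate 1 below all others. Ears2 had 209, 297 and 207 normalized counts in MCDHFD libraries, against 283, 197 and 183 in ND libraries, with 1 library of each diet well above the other 2. Nars2, the asparagine enzyme, had 178, 168 and 173 normalized counts in MCDHFD libraries, against 153, 167 and 122 in ND libraries, with groups apart and an adjusted p of 0.161 in limma. The partners of called cytosolic genes included Aars2 with 434, 425 and 443 normalized counts in MCDHFD libraries, against 403, 404 and 435 in ND libraries, Hars2 with 789, 754 and 699 normalized counts in MCDHFD libraries, against 712, 739 and 773 in ND libraries and Mars2 with 356, 352 and 333 normalized counts in MCDHFD libraries, against 337, 393 and 319 in ND libraries. The genes Aars2 (log2 fold change 0.07), Fars2 (0.16), Hars2 (0.01), Mars2 (-0.01) and Sars2 (-0.07), which serve alanine, phenylalanine, histidine, methionine and serine, had overlapping groups.

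The mitochondrial gene was set over its cytosolic partner within each library for 17 pairings, in which Eprs and Fars2 each stand with 2 partners. The libraries of the diets did not overlap in 11 of 17, with the ratio lower in MCDHFD libraries in 7 and higher in 4. Of all tested genes 65.4% had levels that did not overlap, a share near that of the pairs. That share is of levels of single genes, and none was computed for ratios of other gene pairs. So nothing particular to the pairs is read from the count. A ratio within a library does not change with a scaling by 1 factor per library, and it shows unequal change without showing which gene moved. These ratios were not tested across genes.

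For arginine the ratio Rars2 to Rars was 0.224 ± 0.0201 in MCDHFD libraries and 0.355 ± 0.0118 in ND libraries (SD, n = 3 each), with Rars2 called lower and Rars not called. For valine the ratio Vars2 to Vars was 0.136 ± 0.00809 in MCDHFD libraries and 0.207 ± 0.0117 in ND libraries, where Vars2 fell and Vars rose. For leucine the ratio Lars2 to Lars was 0.515 ± 0.0394 in MCDHFD libraries and 0.340 ± 0.0341 in ND libraries, where Lars2 rose and Lars fell. So in valine and leucine the partners were called in opposite directions, with the mitochondrial gene lower for the first and higher for the other.

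For methionine the ratio Mars2 to Mars1 was 0.521 ± 0.0398 in MCDHFD libraries and 0.366 ± 0.0364 in ND libraries, with Mars1 called lower. For isoleucine it was 1.58 ± 0.101 in MCDHFD libraries and 1.30 ± 0.0232 in ND libraries, with Iars2 called higher. Its counts lay above those of Iars in every library, but these are not corrected for exon length. Per kilobase of annotated exon, Iars2 averaged 225 in MCDHFD libraries and 171 in ND libraries, below the 240 and 221 of Iars. For cysteine, where both genes were called lower, the ratio was 0.662 ± 0.0471 in MCDHFD libraries and 0.993 ± 0.276 in ND libraries. Serine, asparagine and the alpha subunit of the phenylalanine enzyme had ratios that overlapped between diets and differed in mean by under 2%.

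**Figure D4:**
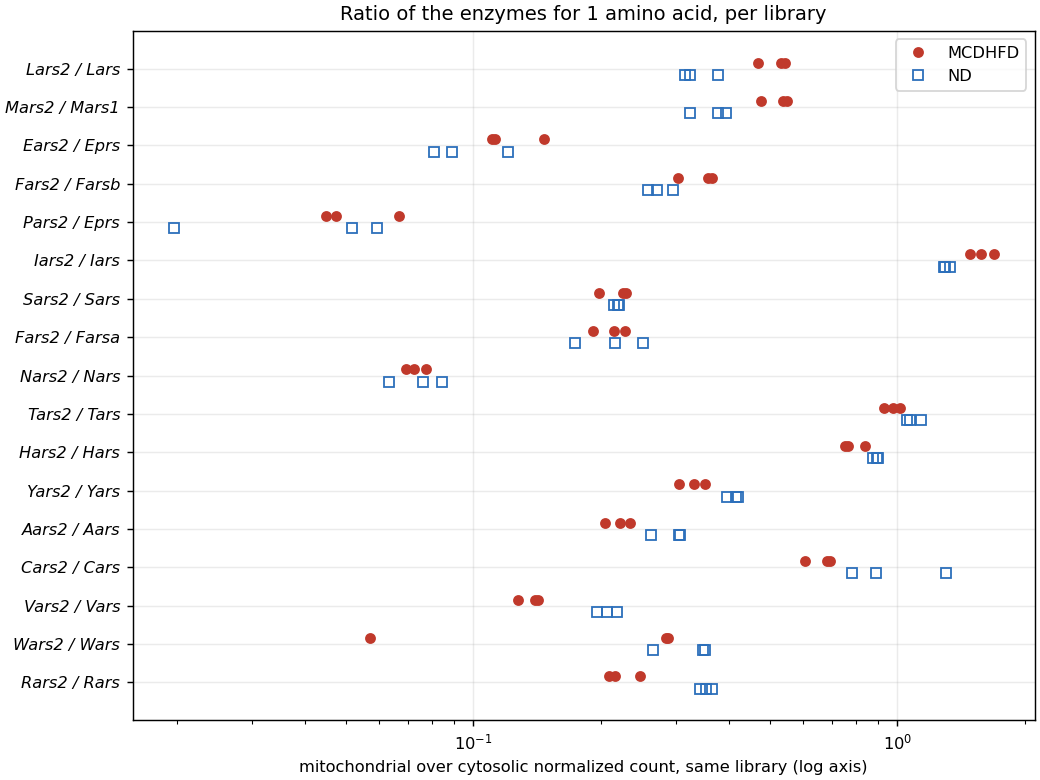
Ratio of the mitochondrial to the cytosolic synthetase gene of the same amino acid within each library (log axis), MCDHFD (filled circles) above ND (open squares), ordered by the ratio of the diet means. Leucine, methionine and isoleucine lie higher in MCDHFD libraries, and valine, arginine, alanine and tyrosine lower, without overlap, while a single MCDHFD library sets the low tryptophan mean.

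Levels between genes were compared per kilobase of annotated exon, which understates genes with long rarely used exons. Cytosolic genes had a median of 236 normalized counts per kb in MCDHFD libraries and 269 in ND libraries. Mitochondrial genes had a median of 60.7 in MCDHFD libraries and 74.8 in ND libraries. These medians fall on different genes in each diet and do not measure a change between diets. The median log2 fold change was 0.01 over the cytosolic and 0.00 over the mitochondrial genes. In both diets Vars was the highest cytosolic gene per kb (731 in MCDHFD libraries and 598 in ND libraries) and Cars the lowest (56.7 in MCDHFD libraries and 71.6 in ND libraries). The highest mitochondrial gene per kb was Iars2 in MCDHFD libraries, at 225, and Hars2 in ND libraries, at 173.

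Other ATF4 targets rose in more genes than they fell in on the authors' scaling, while the synthetases reported as ATF4 targets were called as often higher as lower. The difference between these lists was not tested. Of 26 tested ATF4 targets outside the synthetases (29 listed), 15 were higher and 5 lower, where 30.3% of all tested genes were higher and 28.1% lower. Atf4 itself is on this list and is among the 15. The median log2 fold change of the 26 was 0.36 against 0.00 for all tested genes. Of the 13 synthetases reported as targets, 4 were higher (Aars, Gars, Nars and Vars) and 4 lower (Cars, Eprs, Lars and Mars1), with a median of 0.03. Without ND replicate 3 or without MCDHFD replicate 3 only 2 of the 26 were lower, and the count higher was 13 to 16 without any 1 library. Of the 13 synthetases, 3 were higher and 2 lower without ND replicate 2, and 4 higher and 2 lower without MCDHFD replicate 2. With CD8 T cell markers set equal, 25 of the 26 and all 13 were called higher, with medians of 1.39 and 1.06 against 1.03 for all tested genes.

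Atf4 itself rose, with 4366, 4442 and 4254 normalized counts in MCDHFD libraries, against 3744, 3719 and 3750.2 in ND libraries (log2 fold change 0.22, SE 0.05, limma adjusted p = 0.00289). Asns, asparagine synthetase, had 360.5, 443 and 475 normalized counts in MCDHFD libraries, against 15.7, 18.5 and 23.8 in ND libraries (log2 fold change 4.41), where Nars, which uses asparagine, had a log2 fold change of 0.27. Slc6a9, a glycine transporter, had 103, 123 and 158 normalized counts in MCDHFD libraries, against 12.7, 14.6 and 18.8 in ND libraries, and Ddit4, an inhibitor of mTORC1, had 3634, 4633 and 4415 normalized counts in MCDHFD libraries, against 650.0, 616 and 556 in ND libraries. Cth, which makes cysteine from cystathionine, had 15.1, 26.5 and 32.4 normalized counts in MCDHFD libraries, against 0, 0 and 1.98 in ND libraries, where the ND values lie at or under 3 counts per library. The 5 targets called lower were Stc2 (log2 fold change -0.82), Aldh18a1, a proline synthesis enzyme (-0.39), Mthfd2 (-0.26), Phgdh (-0.22) and Slc38a2 (-0.20). Ddit3 was not called (-0.10). Macrophage and erythroid markers rose in the same libraries, and their part in these values was not tested.

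**Figure D5:**
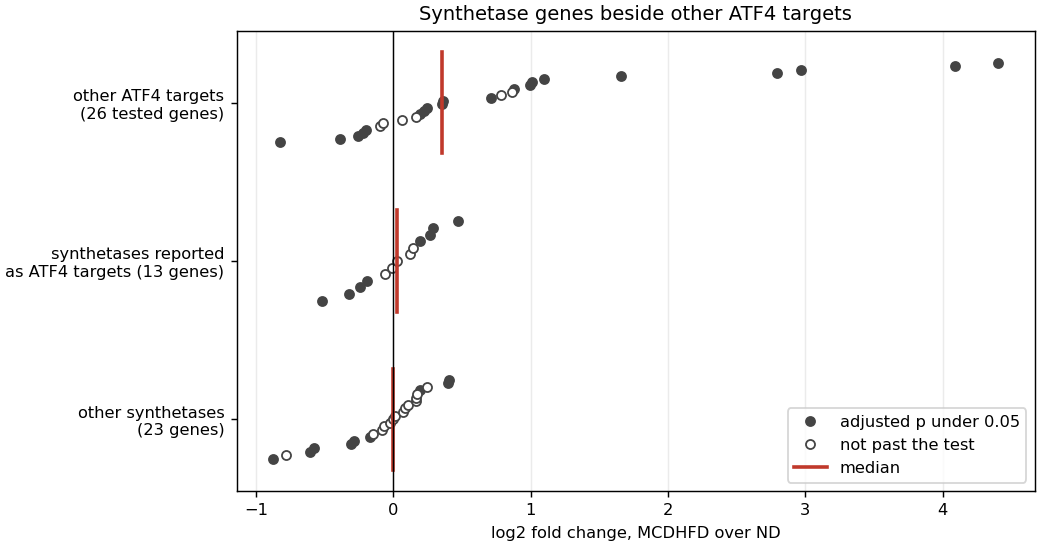
Log2 fold changes (MCDHFD over ND, authors' scaling) of the tested ATF4 targets outside the synthetases, the 13 synthetases reported as ATF4 targets and the other 23 synthetases. Atf4 itself is counted in the first list. Filled points mark an adjusted p under 0.05 and red lines the medians. The first list reaches 4.41 (Asns) with a median of 0.36, and the 13 synthetases lie between -0.52 and 0.47, while with CD8 T cell markers set equal nearly all genes of these lists were higher.

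The list of genes upstream of ATF4 held eIF2 kinases, Gcn1, subunits of eIF2 and of the exchange factor eIF2B, and phosphatase subunits. Of its 15 genes, 6 were higher and 4 lower, or 66.7% called beside 58.4% of all tested genes. All 15 were higher with CD8 T cell markers set equal. On the authors' scaling, the kinases Eif2ak1 (log2 fold change 0.24) and Eif2ak3 (0.29) and the eIF2B subunit Eif2b1 (0.35) rose. The kinase Eif2ak2 (-0.44) and the eIF2 subunit Eif2s2 (-0.23) fell. Eif2ak4, the kinase GCN2 that senses uncharged tRNA, rose (log2 fold change 0.89, adjusted p = 8.97e-06 in limma). Its partner Gcn1 fell (log2 fold change -0.33). Ppp1r15a, a subunit of the phosphatase that reverses eIF2 phosphorylation, fell (log2 fold change -0.59), while Ppp1r15b, the other regulatory subunit of that phosphatase, rose (log2 fold change 0.47). Eif2b2, a subunit of the exchange factor eIF2B, rose (log2 fold change 0.57).

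The C/EBP-ATF response element, through which ATF4 is known to act, has the core TGATGNAA. It was searched on both strands in the 250 bases before the start of each gene in RefSeq's promoter table (GRCm38.p6), which holds 27 of the 36 synthetases. Those of Cars, Hars, Lars, Nars, Rars, Vars, Wars, Hars2 and Pars2 were not searched. The core stood in 3 of 13 cytosolic and 0 of 14 mitochondrial genes, and in 3.45% of all 32851 promoters of that length. The 3 stretches are shown because they hold it, in capitals as its reverse complement on the strand shown, in the gene's own direction:
Aars: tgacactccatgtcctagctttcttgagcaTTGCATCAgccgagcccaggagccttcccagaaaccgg
Gars: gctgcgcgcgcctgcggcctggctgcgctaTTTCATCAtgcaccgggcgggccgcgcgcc
Tars: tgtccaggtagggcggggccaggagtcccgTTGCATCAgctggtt

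The Aars stretch lies at chr8:111033700-111033767, plus strand, with the motif starting 112 bases before the start, that of Gars at chr6:55037941-55038000, plus strand, 30 bases before, and that of Tars at chr15:11399659-11399703, minus strand, 15 bases before. These starts are those of RefSeq's table. By the GENCODE M21 places the Aars stretch lies inside the gene, which begins at 111033144. The Tars stretch ends inside its gene as well. Aars and Gars were called higher. Tars was not called, with 1109, 1126 and 1051 normalized counts in MCDHFD libraries, against 1115, 1086 and 1106 in ND libraries (adjusted p = 0.899 in limma). The cyclic AMP response element TGACGTCA was found in none of the 27 and in 1.55% of all promoters. The CCAAT box was found in 12 of the 27 and in 33.8% of all promoters. A match is a description of these letters and not a site of binding.

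In mm10, the called genes with the largest fold changes are protein-coding genes at these places: Dars (ENSMUSG00000026356, chromosome 1, 128363707 to 128417368, minus strand), Mars1 (ENSMUSG00000040354, chromosome 10, 127296221 to 127311786, minus strand), Aars (ENSMUSG00000031960, chromosome 8, 111033144 to 111057664, plus strand), Cars2 (ENSMUSG00000056228, chromosome 8, 11513977 to 11550783, minus strand), Rars2 (ENSMUSG00000028292, chromosome 4, 34614957 to 34660167, plus strand), Iars2 (ENSMUSG00000026618, chromosome 1, 185284726 to 185329396, minus strand) and Lars2 (ENSMUSG00000035202, chromosome 9, 123366927 to 123462666, plus strand). Exons of 13 of the 36 overlap exons of another annotated gene, and no source used here gives the counting's strand setting, so reads in such stretches cannot be told apart. Iars2 shares 2034 bases with Rab3gap2 on the other strand (1039 normalized counts in MCDHFD libraries and 1014 in ND libraries on average), and Cars2 shares 422 with Naxd (292 in MCDHFD libraries and 274 in ND libraries). Aars shares 1326 bases with Exosc6 on its own strand, so no strand setting would separate reads there, and Exosc6 is not among the measured genes. Hars shares 195 with its neighbour Hars2. Mars1 shares 68 with Ddit3 (362 in MCDHFD libraries and 389 in ND libraries).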

How the data were processed

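The deposited table holds normalized counts, a signal the authors derived from reads, per the file headers, with 19323 Ensembl genes and 6 library columns. The values are whole multiples of 1 step per library, as read counts divided by a size factor would be; the normalizing tool is not named. Total RNA was extracted with TRIzol and the build was mm10, per the labels' protocols and the submitters' processing notes. No source used here names the aligner, counter or annotation.

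Symbols matched 19202 identifiers, and exon lengths and places came from GENCODE M21 by identifier. The main test was limma 3.58.1 in R 4.3.3 (intensity trend, diet as the only term, pseudocount 1, mean of at least 10, Benjamini-Hochberg over 13430 genes). It was also run on simulated counts with 200 changed genes and a common dispersion. Far more genes were called in these data, so nothing is drawn from that run here. In 5 of the 6 libraries, values divided by the smallest value above 0 were taken as whole reads (100% within 0.01), 13188812 to 15482458 per library, for edgeR 4.0.16 and DESeq2 1.42.0. ND replicate 3, whose step lay nearest to 1 (0.990, against 0.941 to 1.12 in the others), was left out of those tests. Its values were whole multiples as well. The 4 pairs of the same diet among these 5 differed in their counts by chi-square 6.11 to 11.5 per degree of freedom, beyond sampling noise. Alternatives were other pseudocounts, filters, scalings and thresholds, the replicate block and leaving out each library. The synthetases and all lists were chosen with earlier results of these data known, and lists were written from general knowledge. Named genes were all synthetases, with values per library for those called and their partners, and up to 4 called genes per other list by size. Atf4, Gcn1, Eif2ak1, Eif2ak2, Eif2ak3, Eif2b1, Eif2s2, Aldh18a1, Stc2, Mthfd2, Phgdh, Slc38a2, Ddit3, Aimp2 and Eef1e1 were added after their values were seen. The result of 1 further list is not reported here.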

Additional observations from a re-analysis of the deposited data

How the results depend on the processing

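Of the 17 called synthetases, 11 (Aars, Dars, Eprs, Mars1, Nars, Vars, Cars2, Iars2, Lars2, Rars2 and Vars2) remained called in the same direction in all refits at an adjusted p under 0.05 except the scaling to CD8 T cell markers. Under that scaling, 20 cytosolic and 14 mitochondrial genes were higher and 0 of each lower, against 5 and 2 higher and 5 and 5 lower on the authors' scaling. The log2 fold changes that changed sign became 0.71 (Cars), 0.42 (Dars), 0.78 (Eprs), 0.88 (Farsb), 0.95 (Kars), 0.84 (Lars), 0.51 (Mars1), 1.001 (Qars), 0.97 (Sars), 1.02 (Tars), 0.15 (Cars2), 1.02 (Mars2), 0.45 (Rars2), 0.96 (Sars2), 0.86 (Tars2), 0.72 (Vars2), 0.25 (Wars2) and 0.74 (Yars2), since that scaling adds the same amount to all genes. Cars2 and Wars2 were not called under it. Quantile scaling left 3 cytosolic genes higher and split all calls into 3552 higher and 4557 lower, against 4065 and 3772. DESeq2 on 5 libraries called 3 cytosolic and 3 mitochondrial genes lower. At an adjusted p under 0.01, 3 cytosolic genes were higher and 3 lower, and 3 mitochondrial genes were lower. With a 1.5-fold minimum added, 4546 of all tested genes were called, and of the synthetases 1 cytosolic (Dars) and 1 mitochondrial (Cars2) were lower and 0 of each higher.

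Leaving out 1 library gave 3 to 6 cytosolic genes higher and 3 to 5 lower, 2 to 2 mitochondrial genes higher and 4 to 5 lower, and 7072 to 7673 calls over all genes. The difference of the medians, cytosolic minus mitochondrial, was 0.007 and ran from -0.041 to 0.085. Same-numbered libraries had deviations correlated at 0.0365, 0.0621 and 0.00572, against -0.0573 to 0.0197 for differently numbered ones. Such correlations cannot show whether same-numbered libraries share an animal, litter or day, and the labels do not say. With the replicate block 7707 genes were called, and of the synthetases Tars2 was lost (adjusted p = 0.0612).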

Other observations

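Of 11 mitochondrial translation factors, 4 were lower and none higher, or 36.4% called, where 58.4% of all tested genes were called, 30.3% higher and 28.1% lower. With CD8 T cell markers set equal 9 of the 11 were higher, as were 11222 of all 13430 tested genes. Mrrf, the ribosome recycling factor, fell (log2 fold change -1.03, limma adjusted p = 0.000294), with 79.1, 95.3 and 109.6 normalized counts in MCDHFD libraries, against 188, 194 and 196 in ND libraries. Gfm2, a recycling GTPase (log2 fold change -0.79), Tufm, the mitochondrial elongation factor Tu (-0.52), and Mtif2, an initiation factor (-0.41), fell as well. Of 9 cytosolic elongation and termination genes, 3 were higher and 3 lower, near the shares of all tested genes, while all 9 were higher with CD8 T cell markers set equal. Eif5a (0.54) and the release factor Gspt1 (0.55) rose and Eef1d (-0.40), an exchange factor subunit, fell.

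Of the 7 genes of trans-editing and tRNA recycling, Dtd2, a deacylase that removes mischarged D-amino acids or alanine from tRNA, was the only gene called, or 14.3% of the list (log2 fold change 0.92, limma adjusted p = 0.000317), while all 7 were higher with CD8 T cell markers set equal. Of the 15 tested tRNA export and processing genes (16 listed), 26.7% were called: 1 was higher, the splicing endonuclease subunit Tsen34 (0.48), and 3 were lower, among them Pop1 of RNase P (-0.74) and the ligase Rtcb (-0.22), while 14 were higher with CD8 T cell markers set equal.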
